A study of Mus musculus with 8 samples.

Results

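The genes described here are 10 transcripts of the neuronal cytoskeleton: the neurofilament subunits Nefl, Nefm and Nefh, the related filament genes Ina and Prph, the neuronal tubulin gene Tubb3, the microtubule-associated genes Map1b and Mapt, and the axon growth genes Gap43 and Stmn2. They were chosen by name, with earlier results of these data known, and all 10 of the 10 symbols were found among the 55335 genes of the count table. All 10 passed the filter on low counts. RNA was sequenced from vagal ganglia, paired ganglia with the cell bodies of vagal sensory neurons, of wild-type (WT) mice. Mice had been challenged with HDM (commonly house dust mite, an allergen) or with saline, and ganglia were collected 1.5 h after challenge number 4. There were 4 HDM and 4 saline libraries, each pooling 6 to 8 ganglia, or 3 to 4 mice, and the pool is therefore the replicate. Neither strain nor age is stated in the sources used here. The labels' batch, from 1 to 4, is identical to the replicate number and pairs 1 HDM library with 1 saline library.

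Neurofilaments are the intermediate filaments of axons, built as mixed polymers of a light, a medium and a heavy subunit, and they set the calibre of myelinated axons. Peripherin (Prph) and alpha-internexin (Ina) can join the same polymer, and peripherin is typical of peripheral neurons and abundant in small unmyelinated ones. Microtubules are the tracks of axonal transport, and tau (Mapt) and MAP1B bind and stabilise them. GAP-43 and stathmin-2 belong to the growth cone, and both are induced in sensory neurons by axon injury.

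Library totals were 23952130 to 26670634 counts in HDM and 26868337 to 31281281 counts in saline. All 14 pan-neuronal markers checked were detected, with a summed level of 6873 to 7450 CPM in HDM and 6560 to 7212 CPM in saline (CPM, counts relative to the library total after TMM scaling). Other cell types were present in both groups. Myelinating Schwann cell markers (11 of 11 tested) summed to 2720 to 3000 CPM in HDM and 2843 to 3474 CPM in saline. Sympathetic neuron markers (8 of 8 tested), which noradrenergic neurons outside the vagal ganglia express, summed to 334 to 919.8 CPM in HDM and 174.6 to 430.9 CPM in saline, with the highest sum in HDM replicate 4. In bulk tissue, a different number of neurons and a different amount of RNA per neuron cannot be told apart.

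Together the 10 genes took 1.44 ± 0.0411% of all counts in HDM and 1.325 ± 0.0359% in saline (SD, n = 4 each). Levels of different genes were compared as TPM, which divides counts by the summed exon length of the gene. This length holds every annotated exon, used or not, so it lowers the TPM of genes with rarely used exons. Tubb3 stood highest on this scale, at 3894 ± 182 TPM in HDM and 3369 ± 93.4 TPM in saline. Prph, at 2698 ± 122 TPM in HDM and 2218 ± 81.2 TPM in saline, and Nefl, at 2598 ± 124 TPM in HDM and 2314 ± 56.5 TPM in saline, came next. Their ranges overlapped in each group. Within every HDM library Prph lay above Nefl, and in saline this held only in replicate 1. Gap43 (952.1 ± 48.4 TPM in HDM, 831.5 ± 16.9 TPM in saline), Stmn2 (949.4 ± 19.8 TPM in HDM, 949.4 ± 30.7 TPM in saline) and Map1b (947.1 ± 27.0 TPM in HDM, 931.8 ± 130.6 TPM in saline) formed a cluster, and their values overlapped within HDM, while in saline every Stmn2 value lay above every Gap43 value. Nefm followed at 819.3 ± 72.8 TPM in HDM and 647 ± 19.8 TPM in saline, then Nefh at 654.8 ± 57.7 TPM in HDM and 570.2 ± 18.2 TPM in saline, and Mapt at 369 ± 19.4 TPM in HDM and 335.5 ± 24.9 TPM in saline. In HDM the values of Nefm overlapped those of Gap43. Ina was lowest, at 34.0 ± 4.42 TPM in HDM and 31.8 ± 3.50 TPM in saline.

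**Figure D1:**
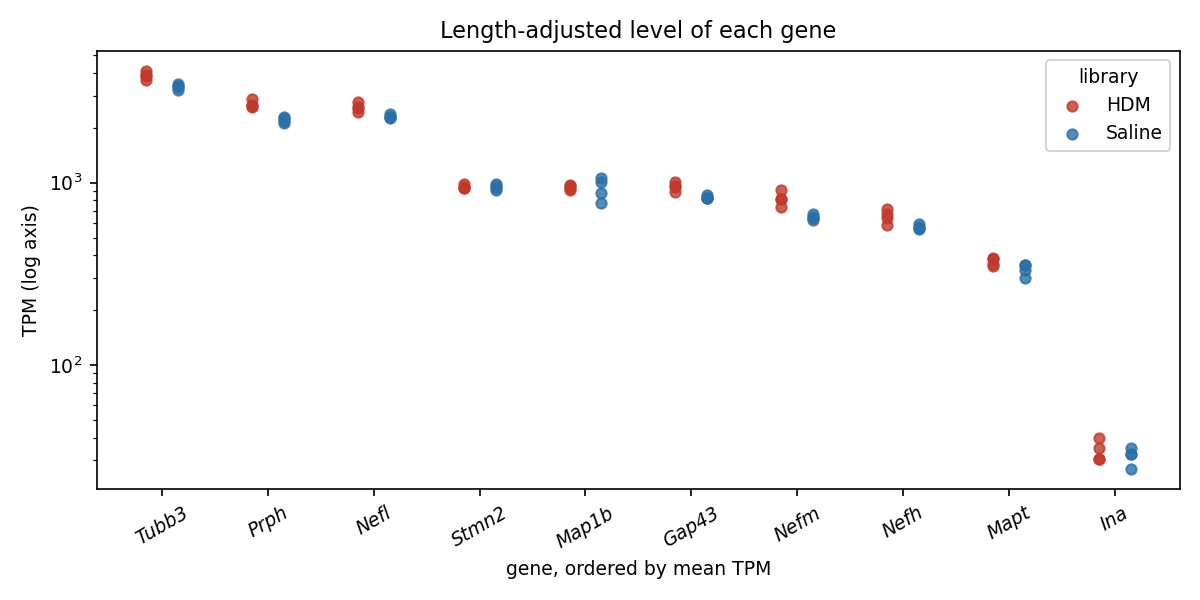
Length-adjusted level (TPM, log axis) of the 10 genes, 1 point per library, HDM in red at the left of each gene and saline in blue at its right. Tubb3, Prph and Nefl lie at 2130 TPM or above in every library, and Ina lies between 26.9 and 40.0 TPM.

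The comparison of HDM with saline asks which transcripts of the ganglia differ 1.5 h after challenge number 4. All libraries share this time. A response to the last challenge therefore cannot be told apart from a lasting difference left by the earlier ones. Here, rose and fell mean higher or lower in HDM than in saline. Of the 10 genes, Nefm and Prph rose in HDM, Nefm 1.25-fold and Prph 1.2-fold, and 0 fell. A gene was called at an adjusted p under 0.05 in edgeR's quasi-likelihood test (2-sided, Benjamini-Hochberg over all 17618 tested genes), by which rule 1.23% of all tested genes rose and 0.159% fell. The median log2 fold change, HDM over saline, was 0.16 over the 10 genes and −0.0055 over all tested genes, and 9 of the 10 values were positive, against 48.5% of all tested genes. With the batch number as a block, 6 of the 10 rose and 0 fell, Nefl, Nefh, Tubb3 and Gap43 joining Nefm and Prph, where 3.01% of all tested genes rose and 1.03% fell. The same 6 were called in DESeq2 (3.33% of all genes higher) and the same 2 in limma-voom (1.07% higher). Libraries of the same batch number showed little likeness beyond their group, with correlations of −0.048 to 0.039 over genes. For 0 libraries was the closest library of the other group the one with the same number. In 5 of the 10 genes every HDM library lay above every saline library in CPM, which held for 6.25% of all tested genes, and in 0 of the 10 did every HDM library lie below (4.39% of all tested genes). In 7 of the 10 HDM was higher in 4 of 4 batches, which held for 15.6% of all tested genes.

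These calls depended on single libraries. Leaving out HDM replicate 1, HDM replicate 2 or saline replicate 3 left 0 of all genes called in edgeR, although 6 of the 10 had an unadjusted p under 0.05 each time. Nefm alone passed without HDM replicate 4 (0.33% of all genes rose), and 4 passed without HDM replicate 3 (1.61% of all genes rose). With the block, leaving out batch 1, 3 or 4 left Nefm and Prph, where 0.73%, 0.492% and 0.59% of all genes rose. Leaving out batch 2 left 0 of the 10 (6 at an unadjusted p under 0.05), where 0.00564% of all genes rose. The exons of the 10 genes had a median GC content of 55.5%, against 49.9% over tested genes and 58.1% over the genes that rose. A correction for the GC content of transcripts left 0 of the 10 and 0.0% of all genes called in edgeR, where 4 of the 10 had an unadjusted p under 0.05. With block and correction 0 of the 10 and 0.176% of all genes were called.

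**Figure D2:**
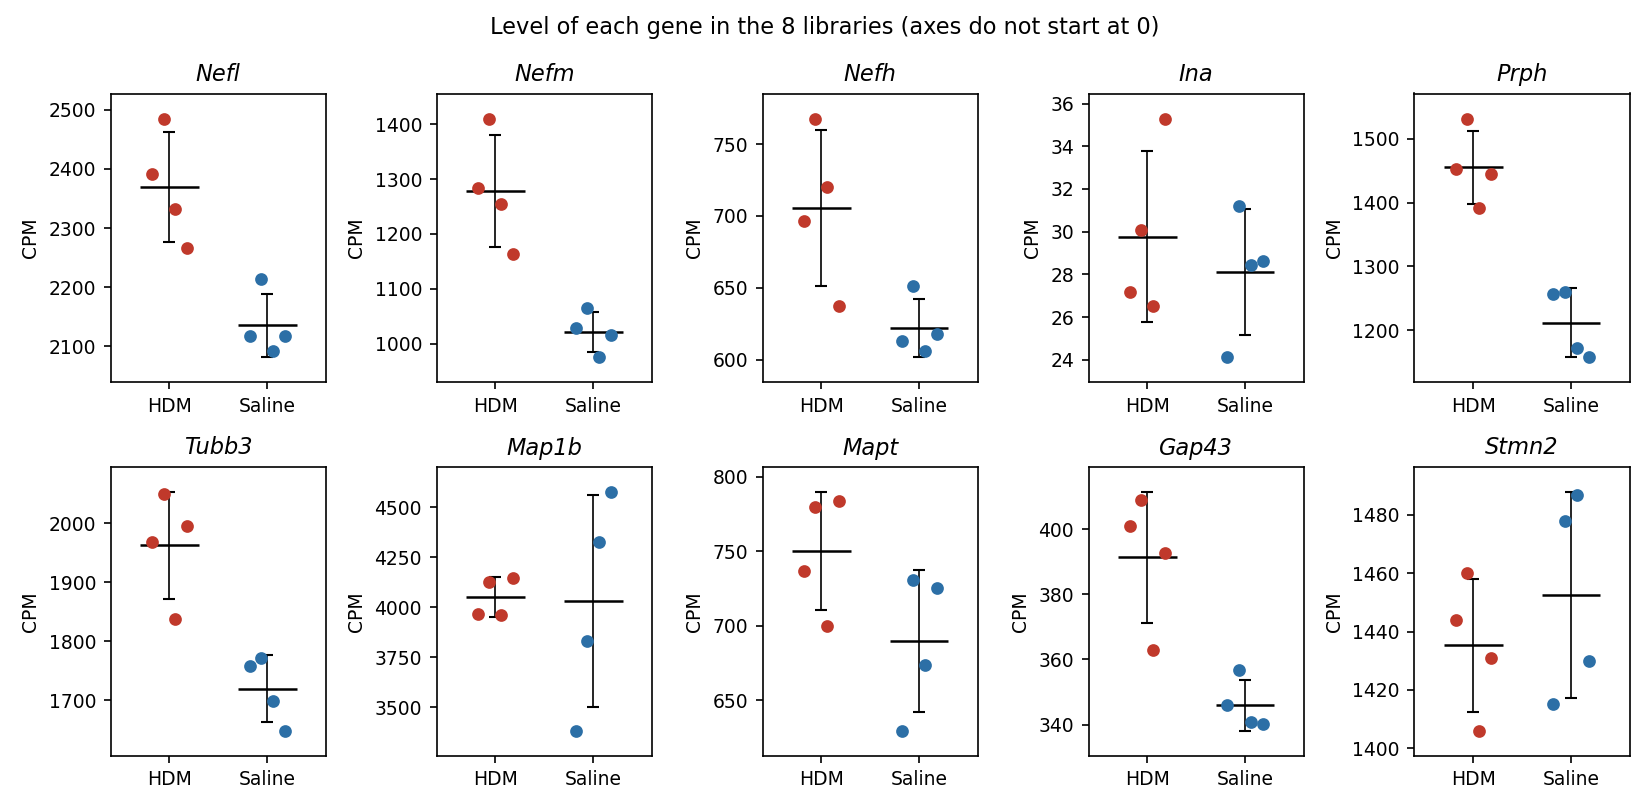
CPM of each gene in the 4 HDM (red, left) and 4 saline (blue, right) libraries, with the mean as a bar and ± SD as whiskers; the vertical axes do not start at 0. In Nefl, Nefm, Prph, Tubb3 and Gap43 the lowest HDM library lies above the highest saline library, and in the other 5 genes the groups overlap.

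Among the filament genes, Nefm (ENSMUSG00000022054, GRCm38 chromosome 14, 68082590 to 68124846, minus strand), the medium subunit, showed the largest difference of the 10. It had 1283, 1410, 1254 and 1164 CPM in HDM (replicates 1 to 4), against 1029, 1065, 975.9 and 1017 CPM in saline. The groups did not overlap, with HDM replicate 4 the lowest of its group and HDM replicate 2 the highest. The log2 fold change was 0.32 (SE 0.056, edgeR adjusted p = 0.0206), and 0.32 with the block (adjusted p = 0.00844). It was positive within each batch, at 0.32, 0.41, 0.36 and 0.20 for batches 1 to 4. After the GC correction it was 0.24 (edgeR adjusted p = 0.164).

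Nefl (ENSMUSG00000022055, chromosome 14, 68083863 to 68089095, plus strand), the light subunit on which filament assembly depends, had 2392, 2485, 2332 and 2267 CPM in HDM, against 2118, 2214, 2093 and 2117 CPM in saline. All HDM libraries lay above all saline libraries, by a narrow gap between HDM replicate 4 and saline replicate 2. Its log2 fold change was 0.15 (SE 0.044, edgeR adjusted p = 0.103), and with the block it was called (0.15, SE 0.033, edgeR adjusted p = 0.0396). The GC correction hardly moved the value (0.17), and its adjusted p was then 0.194. Nefl and Nefm lie on opposite strands, and the annotated span of Nefm covers that of Nefl. Of the 3380 exon bases counted for Nefl, 1108 (32.8%) are also exon bases of Nefm. The strand setting of the counting is not given, so reads there may have been dropped or given to either gene.

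Nefh (ENSMUSG00000020396, chromosome 11, 4938754 to 4948064), the heavy subunit, whose long tail is heavily phosphorylated in axons and which marks large myelinated sensory neurons, had 696.3, 767.7, 720 and 637.5 CPM in HDM, against 613.1, 651.4, 605.9 and 617.8 CPM in saline. HDM replicate 4 lay below saline replicate 2, so the groups overlapped. The log2 fold change was 0.18 (SE 0.055, edgeR adjusted p = 0.111), and with the block the gene was called (0.18, SE 0.042, edgeR adjusted p = 0.0441). After the GC correction it was 0.069 (edgeR adjusted p = 0.672).

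Prph (ENSMUSG00000023484, chromosome 15, 99055174 to 99058978, plus strand) had 1453, 1532, 1392 and 1445 CPM in HDM, against 1257, 1259, 1172 and 1158 CPM in saline. The groups did not overlap, with HDM replicate 3 the lowest of its group and saline replicate 2 the highest of the other. The log2 fold change was 0.26 (SE 0.047, edgeR adjusted p = 0.0219), and 0.27 with the block (adjusted p = 0.00844), and within batches it was 0.21, 0.28, 0.25 and 0.32. Peripherin is also made by sympathetic neurons. Without HDM replicate 4, where sympathetic markers were highest, the Prph value was 0.27 (edgeR adjusted p = 0.0626). HDM replicates 1 to 3 still had 379.8, 367.1 and 334 CPM of these markers, against 174.6, 430.9, 289 and 220.9 CPM in saline. The part of such cells in the Prph level was not tested. After the GC correction it was 0.13 (edgeR adjusted p = 0.27). Its transcripts were 60.5% GC, above 96.9% of tested genes.

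Ina (ENSMUSG00000034336, chromosome 19, 47014698 to 47025327), better known from central neurons, was scarce. It had 27.2, 30.1, 26.5 and 35.3 CPM in HDM, against 24.1, 31.2, 28.5 and 28.6 CPM in saline, and HDM replicate 4 was the highest of the 8 libraries. The groups overlapped, with a log2 fold change of 0.083 (SE 0.094, edgeR adjusted p = 0.684). Without HDM replicate 4 the value was −0.011. HDM replicate 4 also had the highest sum of sympathetic markers, and the part of such cells in the Ina level was not tested. Of the exon bases of Ina, 14.1% are shared with Nt5c2 on the opposite strand.

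The ratio of each gene to Nefl within a library does not depend on the scaling of libraries. For every 100 counts of Nefl, Nefm had 53.6, 56.7, 53.8 and 51.4 counts in HDM, against 48.6, 48.1, 46.6 and 48.1 in saline. Prph had 60.8, 61.6, 59.7 and 63.7 counts in HDM, against 59.3, 56.9, 56.0 and 54.7 in saline. Stmn2 had 60.4, 58.8, 60.3 and 63.1 counts in HDM, against 66.8, 66.7, 71.0 and 67.6 in saline. So the share of Nefm and of Prph beside Nefl was higher, and that of Stmn2 lower, in every HDM library than in any saline library. The exon bases that Nefm and Nefl share (19.2% of those of Nefm) could affect the ratio of these genes, which was not tested.

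On the log2 scale these ratios differed by 0.17 for Nefm, 0.12 for Prph and −0.17 for Stmn2, HDM minus saline. Each had an exact permutation p of 0.0286 (2-sided), the smallest that 70 assignments of the libraries can give, and an adjusted p of 0.0857 over the 9 ratios, so 0 of the 9 passed the threshold. In the other 6 ratios, including that of Nefh (0.030, SD 0.067 in HDM and 0.011 in saline), the groups overlapped. After the GC correction the Nefm and Stmn2 ratios differed by 0.070 and −0.11, and that of Prph by −0.036, with the sign turned. Per length, Nefl made up 38.2 ± 0.367% of the TPM of the 5 filament genes in HDM and 40.0 ± 0.543% in saline, and Nefm 12.0 ± 0.458% in HDM and 11.2 ± 0.161% in saline (SD, n = 4 each).

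**Figure D3:**
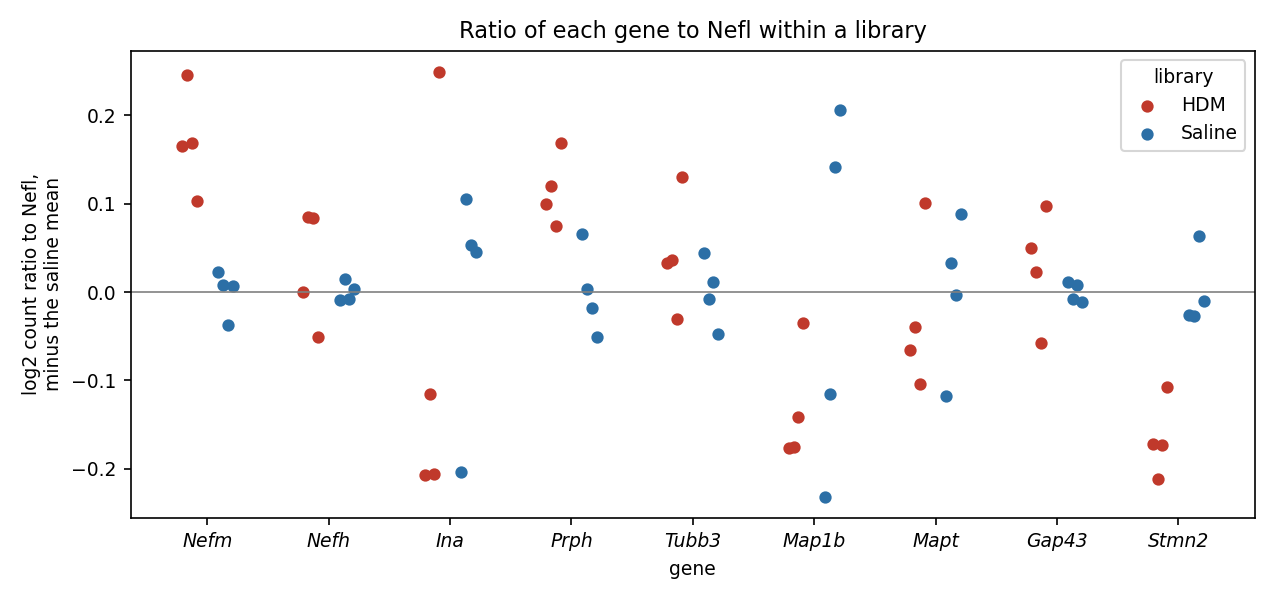
Log2 ratio of the counts of each gene to those of Nefl in the same library, minus the mean of the saline libraries, with HDM in red at the left and saline in blue at the right. The HDM points of Nefm and Prph all lie above, and those of Stmn2 all below, the saline points; the groups of the other 6 genes overlap.

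Of the microtubule genes, Tubb3 (ENSMUSG00000062380, chromosome 8, 123411424 to 123422015), the neuron-restricted class III beta-tubulin, had 1968, 2050, 1837 and 1996 CPM in HDM, against 1758, 1772, 1698 and 1648 CPM in saline. The groups did not overlap. The log2 fold change was 0.19 (SE 0.047, edgeR adjusted p = 0.0606), and with the block the gene was called (0.19, SE 0.037, edgeR adjusted p = 0.0257). After the GC correction it was 0.083 (edgeR adjusted p = 0.472). Tubulin genes are alike in their coding sequence, so reads that match several of them may have been dropped or shared.

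Map1b (ENSMUSG00000052727, chromosome 13, 99421446 to 99516540), which encodes a large microtubule-binding protein of growing axons, had the highest counts of the 10 and close means in both groups, at 4050 CPM in HDM and 4029 CPM in saline. It had 3967, 4126, 3962 and 4146 CPM in HDM, against 3383, 3832, 4326 and 4575 CPM in saline. The saline libraries spread on both sides of the HDM libraries, with an SD of 99.5 CPM in HDM and 530 CPM in saline. The log2 fold change was 0.0077 (SE 0.075, edgeR adjusted p = 0.97), and within batches it was 0.23, 0.11, −0.13 and −0.14. Mapt (ENSMUSG00000018411, chromosome 11, 104231390 to 104332090), the tau gene, had 736.8, 779.9, 699.8 and 783.6 CPM in HDM, against 629.5, 730.7, 673.4 and 725.3 CPM in saline. HDM was higher in 4 of 4 batches, the groups overlapped, and the log2 fold change of 0.12 (SE 0.056) did not pass without the block (edgeR adjusted p = 0.276) or with it (adjusted p = 0.111). Saline replicate 1 was the lowest library for both Map1b and Mapt, and without it their log2 fold changes were −0.074 and 0.074.

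Of the growth genes, Gap43 (ENSMUSG00000047261, chromosome 16, 42248442 to 42340651), which encodes a membrane protein of growth cones and presynaptic endings, had 400.9, 409, 362.9 and 392.6 CPM in HDM, against 345.9, 356.8, 340.7 and 340.1 CPM in saline. The groups did not overlap, with HDM replicate 3 closest to the saline libraries. The log2 fold change was 0.18 (SE 0.046, edgeR adjusted p = 0.0711), and with the block the gene was called (0.18, SE 0.037, edgeR adjusted p = 0.0321). Unlike that of Prph, Tubb3 and Nefh, its value was larger after the GC correction, at 0.22 (edgeR adjusted p = 0.152, and 0.0578 with block and correction). Its transcripts were 47.3% GC, below the median of 49.9% over tested genes.

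Stmn2 (ENSMUSG00000027500, chromosome 3, 8509360 to 8561606), whose product binds free tubulin and which is needed for axon regrowth, had 1444, 1460, 1406 and 1431 CPM in HDM, against 1415, 1478, 1487 and 1430 CPM in saline. The groups overlapped, and the log2 fold change was −0.017 (SE 0.040, edgeR adjusted p = 0.862). The axon injury list (10 of 10 tested, median log2 fold change 0.089) had 0 members called in edgeR with or without the block (3 at an unadjusted p under 0.05), 0 in limma-voom and 1 in DESeq2. Jun, a transcription factor induced by nerve injury, had a value of 0.21 (edgeR adjusted p = 0.104), and Atf3, an early marker of injured neurons, one of 0.006, with a mean of 8.45 CPM in HDM against 8.42 CPM in saline.

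**Figure D4:**
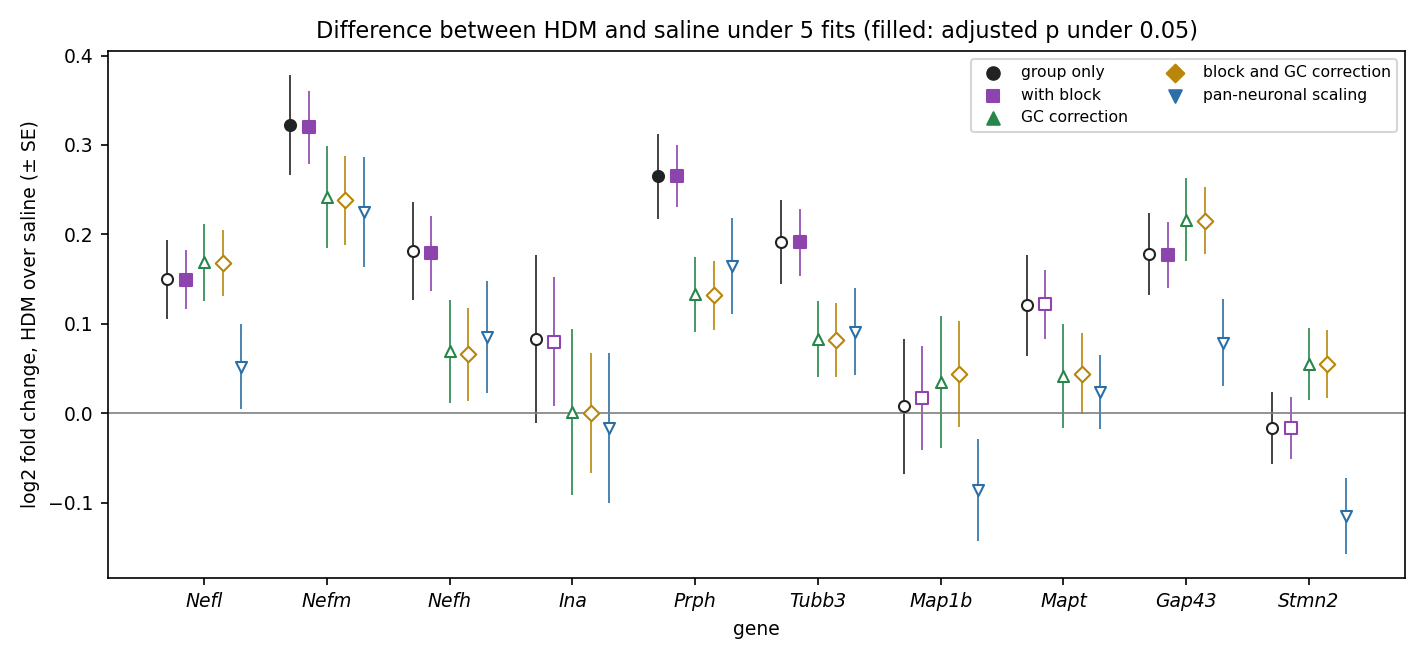
Log2 fold change, HDM over saline, with ± SE, of each gene under 5 fits; filled symbols have an adjusted p under 0.05. Nefm and Prph are filled without the block, 6 genes are filled with it, and none is filled after the GC correction without or with the block, where Prph, Nefh and Tubb3 move toward 0 and Nefl, Gap43 and Stmn2 move up.

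Promoter sequences were in the RefSeq table (GRCm38.p6) for 4 of the 10 genes, from 250 bases before to 50 bases after the RefSeq start, which can differ from that of the count table. They are shown for Prph, called in both fits, Tubb3, called with the block, and Map1b, called in neither. Capitals mark the TATA box core TATAA and the GC box GGGCGG, each searched on both strands, so that TTATA and CCGCCC are also marked. The regions are chr15:99054924-99055223 (plus strand), chr8:123411303-123411602 (plus strand) and chr13:99516553-99516852 (minus strand), all read 5′ to 3′ along the gene.
Prph: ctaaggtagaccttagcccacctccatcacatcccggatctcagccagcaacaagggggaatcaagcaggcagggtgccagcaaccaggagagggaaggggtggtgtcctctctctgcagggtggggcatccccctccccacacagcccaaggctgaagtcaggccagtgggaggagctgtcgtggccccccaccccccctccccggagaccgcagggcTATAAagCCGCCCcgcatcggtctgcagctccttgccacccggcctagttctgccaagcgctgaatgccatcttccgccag
Tubb3: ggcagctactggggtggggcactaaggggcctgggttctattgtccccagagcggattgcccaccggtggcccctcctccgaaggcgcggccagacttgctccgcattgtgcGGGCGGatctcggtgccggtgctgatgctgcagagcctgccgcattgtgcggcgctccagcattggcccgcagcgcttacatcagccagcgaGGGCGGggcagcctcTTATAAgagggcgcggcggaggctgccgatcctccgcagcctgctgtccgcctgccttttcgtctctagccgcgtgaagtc
Map1b: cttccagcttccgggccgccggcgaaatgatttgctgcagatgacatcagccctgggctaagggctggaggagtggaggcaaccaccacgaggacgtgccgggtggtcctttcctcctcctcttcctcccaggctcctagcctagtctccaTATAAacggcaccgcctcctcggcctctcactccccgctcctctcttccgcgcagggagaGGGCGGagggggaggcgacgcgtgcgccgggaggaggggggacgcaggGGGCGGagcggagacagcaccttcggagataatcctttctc
The TATA core starts at −31 relative to that start in Prph, at −30 in Tubb3 and at −99 in Map1b. Either strand of TATAA is in 24.9% of the 32851 promoters of the table, and either strand of GGGCGG in 35.7%. The AP-1 site TGACTCA (5.20% of promoters) and the cAMP response element TGACGTCA (1.79%) were in 0 of the 4. The 3 promoters shown are 64.7%, 67.3% and 65.7% GC in that order, against a median of 52.7% over the table. Of the 4 promoters, that of Ina holds no TATAA and all 4 hold a GC box, and the log2 fold changes were 0.26 for Prph, 0.19 for Tubb3, 0.0077 for Map1b and 0.083 for Ina.

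The rest of the axonal cytoskeleton was followed in 8 further lists with 114 genes, all tested. Of these, 11 rose and 0 fell without the block, where 1.23% of all tested genes rose and 0.159% fell. With the block 19 rose and 0 fell, where 3.01% of all tested genes rose and 1.03% fell. Their median log2 fold change was 0.061, against −0.0055 over all tested genes without the block. After the GC correction edgeR called 0 of the 114 (21 at an unadjusted p under 0.05) and 0.0% of all tested genes. With block and correction it called 1 of the 114 and 0.176% of all tested genes. The levels given next are means in CPM ± SD (n = 4 each) and the differences are log2 fold changes without the block.

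Basp1, which encodes a membrane protein of growth cones related in function to GAP-43, rose most, with 243.2 ± 20.2 CPM in HDM against 184.6 ± 12.2 CPM in saline (0.40, edgeR adjusted p = 0.0159). It was the only called gene among 14 other stathmin and growth cone genes, where the abundant Dpysl3 and L1cam, genes of axon guidance, had 0.045 and 0.083. Of 18 other microtubule-associated genes, Map1a and Map7d1 rose. Map1a, a relative of Map1b, had 1077 ± 56.8 CPM in HDM against 896.9 ± 69.99 CPM in saline (0.26, edgeR adjusted p = 0.0448). Map7d1 had 0.32 (edgeR adjusted p = 0.0159). Map6, a microtubule-stabilising protein, was called with the block (0.21). Map4, the abundant relative of tau found in many tissues, had 0.048.

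Of 13 other tubulins 0 were called without the block in edgeR (5 at an unadjusted p under 0.05) or limma-voom and 1 in DESeq2, and Tubg1, a gamma-tubulin of microtubule nucleation, was called with the block (0.25, edgeR adjusted p = 0.0355). Tuba1a, the main neuronal alpha-tubulin, had a mean of 2041 CPM in HDM against 2110 CPM in saline (−0.048), and Tubb5 had 0.075. The difference between Tubb3 and these tubulins was not tested.

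Of 21 axonal motor genes, Klc1, a kinesin light chain, and Dctn1 and Dynll2, of the dynactin and dynein complexes, rose, by log2 fold changes of 0.25, 0.27 and 0.27. Dynll2 had 473.8 ± 16.2 CPM in HDM against 392.3 ± 9.18 CPM in saline, and it was the 1 gene of the 114 still called after block and correction together (0.25, edgeR adjusted p = 0.0447). The block added Kif1a, a motor of synaptic vesicle precursors (0.17), and Klc2 (0.20). Kif5a, the kinesin that carries neurofilaments, had a mean of 1987 CPM in HDM against 1831 CPM in saline (0.12, edgeR adjusted p = 0.178).

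Of 13 spectrin and ankyrin genes, 2 rose, among them Epb41l1, a linker of membrane and spectrin (0.24), and the block added Sptbn4, the spectrin of nodes and axon initial segments (0.29), and Sptb (0.19). Of 11 other intermediate filament and linker genes, Plec, which encodes plectin, a linker between filament systems, rose (0.23), and the block added Lmna (0.22). Dst, which encodes dystonin, another linker, had 0.027. Of 14 genes of neurofilament and tau phosphorylation and turnover, Cdk5r2, an activator of the neuronal kinase CDK5, and Mark4, a tau kinase, rose (0.27 and 0.21), the block added Mark1 (0.18), and Mapk3, an abundant kinase that phosphorylates neurofilaments, had 0.053.

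**Figure D5:**
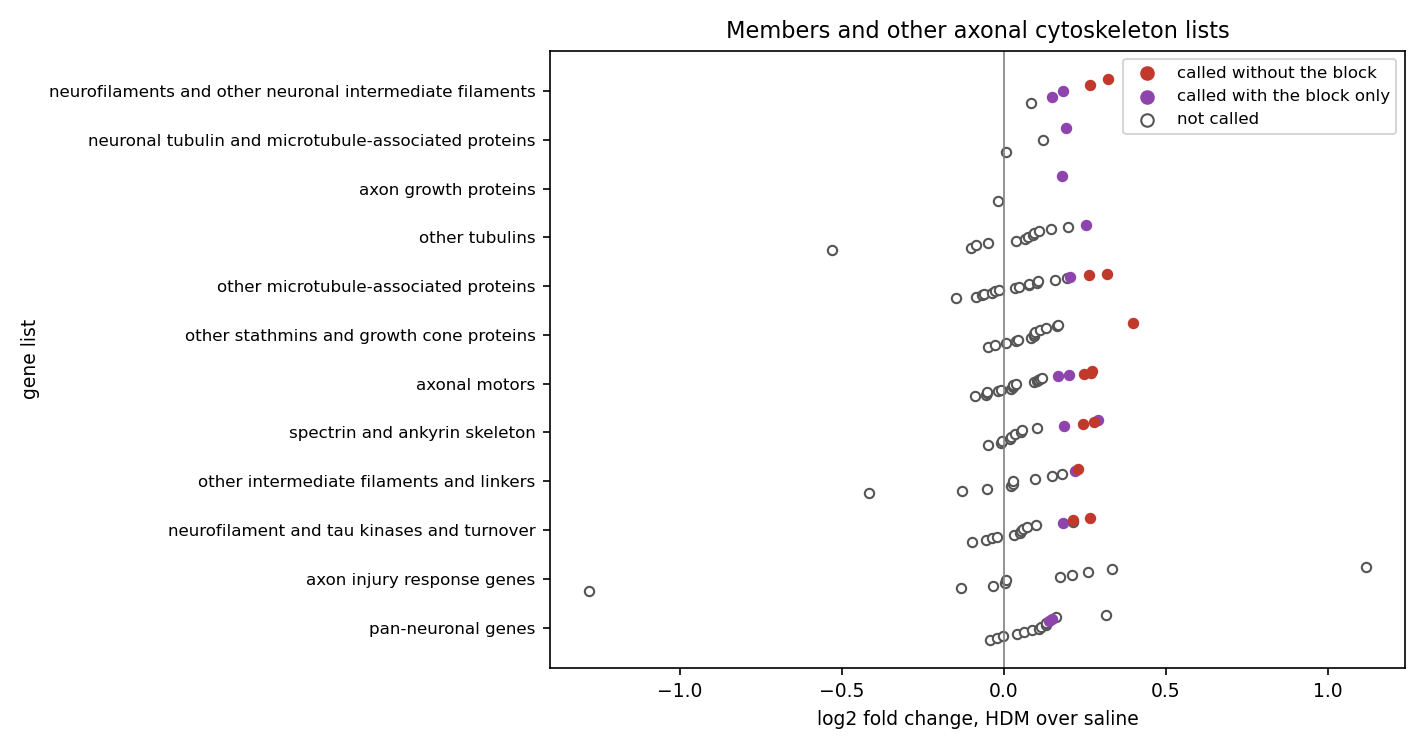
Log2 fold change, HDM over saline, of each tested gene without the block, by list, with genes called without the block in red, those called with the block only in purple and the others open; the top 3 lists are the 10 genes described here. No gene of these lists is called below 0.

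The 14 pan-neuronal genes had a median log2 fold change of 0.11, and 11 of the 14 values were positive, with 0 called without the block in edgeR (7 at an unadjusted p under 0.05) or limma-voom, 2 in DESeq2, and 2 with the block, Uchl1 (0.15) and Avil (0.14). Markers of myelinating Schwann cells had a median of −0.17, and 2 of 11, Pmp22 and Ugt8a, fell (−0.23 and −0.33), with Drp2 joining them under the block (−0.24). Of 10 satellite glia markers 1 fell, and the block called Apoe as higher (0.24). Of 8 fibroblast markers Ogn fell (−0.44), and the block added Dcn (−0.29). Macrophage markers summed to 51.1 to 68.0 CPM in HDM and 51.7 to 82.9 CPM in saline, and endothelial markers to 128.1 to 142.5 CPM in HDM and 116.6 to 168.5 CPM in saline. Sympathetic markers had a median of 0.95, and 0 of 8 were called in edgeR with or without the block (5 at an unadjusted p under 0.05), in DESeq2 or in limma-voom. The part of these shifts in the values of the 10 genes was not tested directly, but libraries can be scaled to the pan-neuronal genes alone. On that scale the median of all tested genes was −0.10, and Nefm had 0.22 and Prph 0.16 (edgeR adjusted p = 0.0607 and 0.0887). Nefl, Nefh, Tubb3 and Gap43 had 0.052, 0.085, 0.091 and 0.079. So 0 of the 10 were called in edgeR (3 at an unadjusted p under 0.05). Of all tested genes 1.98% were called, 21 of them as higher and 327 as lower. Such a scaling shifts all genes nearly alike, so the values relative to the median of all genes stayed close to those before it by construction (0.33 for Nefm and 0.27 for Prph). The block on that scale was a setting added after the data were seen. Nefm and Prph were then called as higher (edgeR adjusted p = 0.0105 and 0.0154) and Stmn2 as lower (−0.11, edgeR adjusted p = 0.0286). In that setting 0.908% of all tested genes were called higher and 12.9% lower. Relative to the median of all genes there, the Stmn2 value was −0.013.

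Markers of the sensory neuron classes in which these filament genes differ gave no call without the block in edgeR. Of 10 markers of large myelinated neurons, which are rich in neurofilament, 0 were called (4 at an unadjusted p under 0.05), with a median log2 fold change of −0.090, and the block called Ntrk3 and Kcna2 as lower (−0.28 and −0.19). Of 10 markers of small unmyelinated neurons, 0 were called (4 at an unadjusted p under 0.05), with a median of −0.034, and the block called Mrgprd as lower (−0.30). Limma-voom called 0 in both lists, and DESeq2 called 2 of the large-neuron markers as lower and 0 of the others. Both lists held values of both signs, with 2 of 10 positive for the large neurons and 4 of 10 for the small ones. The 7 tested markers of nodose neurons, the placode-derived visceral sensory neurons, had a median of 0.32, and 7 of 7 values were positive. Of these, 0 were called without the block in edgeR (5 at an unadjusted p under 0.05), DESeq2 or limma-voom. The block called 4 as higher, among them Tbx3, Hoxb5 and Cckar (0.31, 0.34 and 0.23). The 7 tested markers of jugular neurons, the neural crest-derived ones, had a median of −0.10, and only 1 value, that of Tlx3, was positive. Of these, 0 were called without the block in edgeR (3 at an unadjusted p under 0.05) or limma-voom and 1 in DESeq2. The block called Tlx3 as higher (0.31). The part of these neuron classes in the values of the 10 genes was not tested.

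Across the 8 libraries, after the mean of each group was removed, Pearson's r was 0.957 between Nefl and Nefm, which share exon bases, 0.897 between Nefl and Nefh and 0.932 between Nefm and Nefh, given as a description of 8 libraries that each share depth and scaling across genes. The genes outside the list with the closest pattern to the mean log2 CPM of Nefl, Nefm and Nefh were Abcf2, Lonp2, Abhd6, Dclk3 and Gmcl1, with a likeness (Pearson's r over 8 libraries, given as a description) of 0.98, 0.96, 0.96, 0.94 and 0.94. Predicted-gene, Rik, clone, pseudogene and mitochondrial names were left out. They are the closest of the other tested genes, a choice that favours high values. None of these 5 genes was called, and their log2 fold changes lay between −0.044 and 0.15. On the same measure Prph had 0.59, Gap43 0.44, Tubb3 0.34, Stmn2 0.31, Mapt 0.16, Map1b −0.16 and Ina −0.22.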

How the data were processed

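Per the labels' protocols, RNA of homogenised ganglia was column-purified, and stranded mRNA libraries were sequenced with paired reads of 50 bp. The authors deposited 1 table of raw counts per gene, made with featureCounts on GRCm38 (mm10) per the submitters' processing notes; the gene length column comes from the same table, per the file headers. The aligner, tool versions and strand setting were not stated in any source used here. Symbols, transcript GC content and overlaps are from GENCODE M21, which gave 54899 of 55335 genes the same span.

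Genes were filtered with filterByExpr and compared with edgeR 4.0.16 (R 4.3.3), TMM factors, group as the only term. A count of 0 allows up to 3 counts, for counting error only. Since labels pair libraries by batch, a blocked fit was run beside the fit on group alone; deviations of same-numbered libraries correlated by −0.048 to 0.039 over genes. DESeq2 1.42.0, limma-voom 3.58.1 and other alternatives were run. The GC correction fitted a natural spline (4 degrees of freedom) to each library over genes above a log2 CPM of 3. P-values measure the spread between pools. Members and lists were chosen with earlier results of these data known. All members were named, with the listed genes called in either fit, up to 2 abundant genes of each list, and the 5 genes most like the neurofilaments; Atf3 was named for its role after its values were seen. Some listed genes that this rule names are not reported here.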

Additional observations from a re-analysis of the deposited data

How the results depend on the processing

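Over 22 alternatives the log2 fold change of Nefm stayed between 0.22 and 0.36 and passed in 15, and that of Prph between 0.13 and 0.29 and passed in 14; Nefl, Nefh, Tubb3, Mapt and Gap43 kept a positive sign in all 22. The number of the 10 genes called was 2 in the fit reported first. It was 6 in DESeq2 and 6 with the replicate block. It was 0 with the GC correction, 0 with block and GC correction and 0 with pan-neuronal size factors, and 0 to 4 when single libraries or, with the block, batches were left out. All genes called numbered 244 in that fit, 722 without a filter on low counts, 843 in DESeq2 and 713 with the block. They numbered 0 with the GC correction, 31 with block and GC correction, 2438 with pan-neuronal size factors and the block (added after the data were seen), 0 to 376 without single libraries, and 150, 1, 113 and 130 with the block and without batches 1 to 4. The median log2 fold change of the 10 genes, 0.16, was 0.076 with the GC correction, 0.074 with block and GC correction, and 0.066 with pan-neuronal size factors, with or without the block.

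Values near 0 changed sign. Map1b had −0.0066 without the filter, −0.086 with pan-neuronal size factors and −0.081 with those and the block, and −0.0542 and −0.0151 with the block and without batch 1 or 2. When single libraries or batches were left out, its values spanned −0.074 to 0.071. Ina had −0.016 and −0.017 with pan-neuronal size factors, without and with the block, −0.0004 with the block and without batch 4, and −0.011 to 0.14 without single libraries or batches. Stmn2 had 0.055 with the GC correction, 0.055 with block and GC correction, and −0.035 to 0.0040 without single libraries or batches. The ratios of Nefh, Prph and Tubb3 to Nefl became −0.10, −0.036 and −0.086 on the log2 scale with the GC correction, and that of Mapt lay between −0.070 and 0.0020 without single libraries. The cause of these changes was not tested. In the ratios, the block allows no p below 0.125, so that test cannot pass. Depth limits Ina most, at 649 to 979 counts a library.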
